A study of Mus musculus with 36 samples.

Results

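The genes described here are the intact-named olfactory receptor genes of mouse chromosomes 10 and 11. The rule that defines them uses only name and place. It takes genes whose symbol is Olfr followed only by digits and whose deposited locus lies on either chromosome in the genome build mm9. The rule found 150 genes, 67 on chromosome 10 and 83 on chromosome 11, among 1105 Olfr genes and 24748 genes in all. Levels are given in FPKM, that is, sequenced fragments divided by transcript length in kilobases and by the mapped fragments of the library, and were summed over all entries with one symbol.

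Olfactory receptors are G protein-coupled receptors that bind odorants on the cilia of olfactory sensory neurons (OSNs). Each mature OSN is known to transcribe a single receptor gene from a single allele, so that the level of a receptor gene in the whole main olfactory epithelium (MOE) depends on how many neurons have chosen it and on how much RNA each of them holds. In bulk tissue these contributions cannot be told apart. Receptor genes lie in tandem clusters, many of them products of recent duplication, and their coding sequence sits in 1 exon. The vomeronasal organ (VNO) mostly uses other receptor families, and the olfactory bulb (OB) receives the axons of both kinds of sensory neurons.

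RNA was sequenced from the MOE, VNO and OB of C57BL/6 mice at 6 months of age, in 36 libraries. Mice were weaned at 3 weeks and kept 4 to a cage, either with their own sex only (sex-separated females, SF, and males, SM) or with both sexes in the cage (sex-combined females, CF, and males, CM). By the study's methods, SF and SM cages stood in rooms that held mice of the same sex only. Sex and room therefore cannot be told apart between SF and SM, nor housing and room in the other comparisons that use them. Each tissue has 4 groups of 3 libraries, and the labels name no transgene or agent. Every library came from RNA pooled from several mice, and the labels and the study's methods differ on how many, so p-values measure the spread between pools. The comparisons address whether the sexes, and mice housed with and without the other sex, differ in their receptor transcripts. By the study's methods, pups were born in the sex-combined cages and were euthanized soon after birth. Scent, mating, pregnancy, birth and brief contact with pups therefore cannot be told apart in the comparisons of housing.

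The libraries matched their labels. Xist was at or above 11.8 FPKM in the 18 female libraries and at or below 0.0793 in the 18 male libraries. Cnga2, a subunit of the cyclic nucleotide-gated channel of OSNs, stood at 213 ± 36.9 FPKM in MOE (SD, n = 12), 2.18 ± 1.02 in VNO and 0.602 ± 0.167 in OB, while Trpc2, the channel of vomeronasal neurons, stood at 0.938 ± 0.246, 43.0 ± 4.85 and 0.199 ± 0.256. The estimated fragments per library, from the confidence limits of each FPKM, were 3016520 to 5902160 in MOE, 3373400 to 6779890 in VNO and 3592960 to 6437260 in OB. These totals are not the sequencing depth. The study's counts of aligned pairs were larger in each library, and by them MOE-CM3, lowest here, was not the lowest MOE library. A pair of MOE libraries stood apart. The geometric mean level of 10 mature OSN markers was 99.05 FPKM in MOE-SF2 and 89.1 in MOE-CM3, against 124 to 151 in the other 10. Markers of sustentacular (supporting) cells were also low there, at 127 and 106 FPKM against 148 to 184. Ciliated cell markers stood at 12.3 FPKM in MOE-CM3, against 17.6 to 22.0 in the rest. Nasal gland markers stood at 1734 FPKM in MOE-SF2, against 644 to 1106. By the study's account MOE-CM3 had the lowest share of aligned reads. The part of neuron number in the OSN marker level was not tested. Comparisons of receptor genes are also given with each library left out and without both of these.

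The 150 receptor genes were each low in MOE. Their median level was 0.531 FPKM, with quartiles of 0.211 and 1.36 and a highest mean of 8.48. Of the 150, 77 reached 0.5 FPKM, 50 reached 1, 17 reached 2 and 3 reached 5, whereas 23 lay below 0.1. The 10 highest genes held 32.5% of the summed FPKM of the 150. The 955 other Olfr genes had a median of 0.663 FPKM, and 14 of them exceeded 10 FPKM, a level that none of the 150 reached. In 11 of the 12 MOE libraries the median of the 150 lay below that of the other Olfr genes. A single fragment was worth a median of 0.0874 FPKM in MOE, and 65.2% of the values of the 150 genes there rested on fewer than 10 fragments, so that 53 genes had a median of at least 10.

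The loci fell into 8 clusters, taken as runs of member genes on one chromosome with less than 1 Mb between neighbours, and levels within the large clusters ranged from close to 0 to several FPKM (mm9 positions throughout). On chromosome 10, 9 genes lay between 78074414 and 78498547 with a median of 0.635 FPKM, and 58 genes lay between 128426970 and 129648184 with a median of 0.587. The latter held 43.4% of the summed FPKM. On chromosome 11, the 19 genes between 48926279 and 49378360 had the highest median of any cluster, 1.16 FPKM, and 23.1% of the sum. The 24 genes between 58268417 and 59427727 had a median of 0.331 FPKM and the 30 genes between 73164361 and 74179111 a median of 0.499. The 3 smaller groups on chromosome 11 held 5 genes (50782522 to 50862552, median 0.225), 2 genes (51958095 to 52027489, 0 and 0.0083) and 3 genes (87702461 to 87728505, median 0.309).

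**Figure D1:**
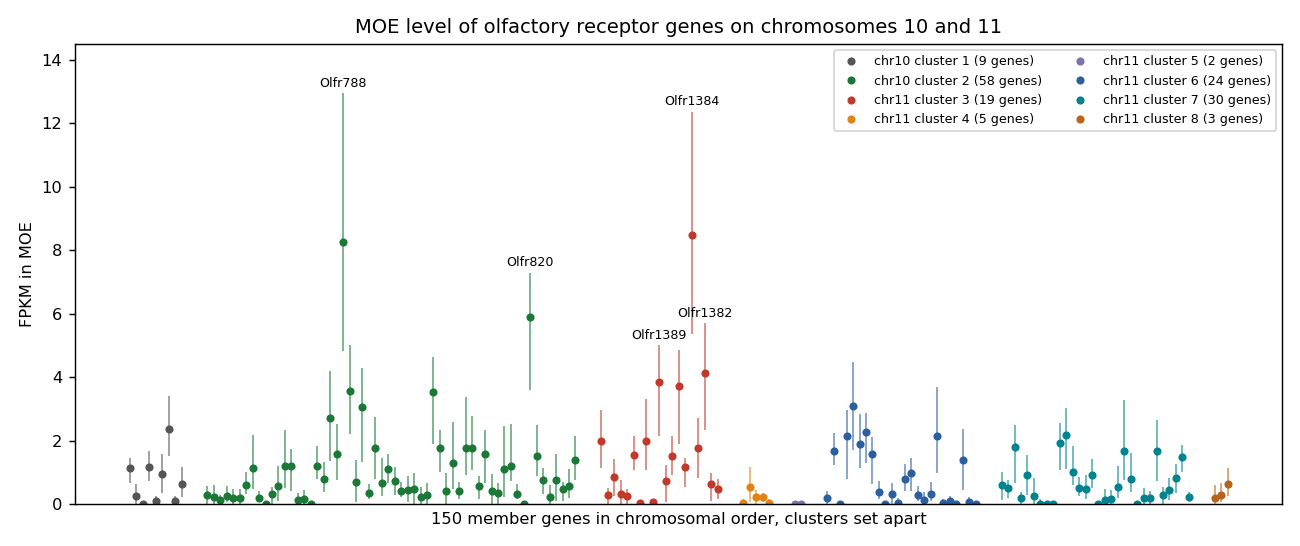
FPKM in MOE of the 150 receptor genes in chromosomal order, coloured by cluster; points are means over 12 libraries and lines run from the lowest to the highest library. Only Olfr1384 (8.48), Olfr788 (8.26) and Olfr820 (5.89) have means over 5 FPKM, and low genes stand between high ones in each large cluster.

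Of the 10 highest genes, 5 lay in the large chromosome 10 cluster, 4 in the first chromosome 11 cluster and 1 among the 24 genes further along chromosome 11. Olfr1384 (chromosome 11, 49327120 to 49328153) ranged from 5.38 to 12.4 FPKM over the 12 MOE libraries with a median of 8.21 and rested on at least 63.5 fragments in each. Olfr788 (chromosome 10, 128909750 to 128910685) ranged from 4.82 to 12.9 FPKM, and Olfr820 (chromosome 10, 129454419 to 129455357) from 3.61 to 7.29. The lowest library for Olfr1384, Olfr788 and Olfr820 was MOE-CM3 in each case. Their means were 8.48 ± 2.05, 8.26 ± 2.56 and 5.89 ± 1.17 FPKM (SD, n = 12). The first 2 therefore did not differ beyond their spread.

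The other 7 had means between 3.07 and 4.12 FPKM, with neighbours in that order closer together than their SDs. Olfr1382 stood at 4.12 ± 1.15, Olfr1389 at 3.85 ± 0.858 and Olfr1386 at 3.73 ± 0.876 (SD, n = 12 each), all 3 in the same chromosome 11 cluster as Olfr1384. Olfr789, Olfr805 and Olfr791 of chromosome 10 stood at 3.58 ± 0.953, 3.55 ± 0.774 and 3.07 ± 0.941 FPKM. Olfr329 (chromosome 11, 58355949 to 58356985) stood at 3.11 ± 0.932 FPKM. For none of the 10 genes did a group stand apart from all the others, although the SM values of Olfr788 lay below those of CF and the SF values of Olfr791 above those of SM.

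**Figure D2:**
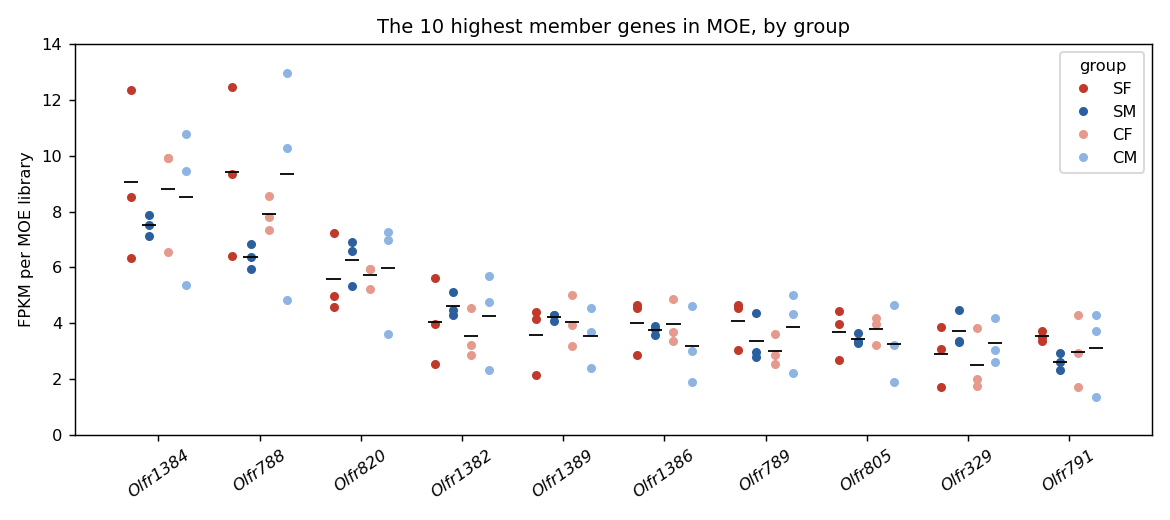
FPKM of the 10 highest receptor genes in each MOE library; points are libraries coloured by group (SF, SM, CF, CM; n = 3 each) and short black lines are group means. Values of Olfr788 in SM (5.95 to 6.83) sit close together, whereas CM spans 4.82 to 12.9.

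High genes stood near one another in 2 stretches, which were picked out after their levels were seen. The 8 genes from Olfr1389 to Olfr1382 span 106 kb of chromosome 11 (49243929 to 49349624), include 4 of the 10 highest genes and held 17.3% of the sum of the 150. Inside that stretch, however, Olfr1388 stood at 0.726 FPKM and Olfr1385 at 1.16. The 6 genes from Olfr786 to Olfr791 span 90.4 kb of chromosome 10 (128873870 to 128964223), include 3 of the 10 highest and held 13.6%. There Olfr790 stood at 0.707 FPKM between Olfr789 at 3.58 and Olfr791 at 3.07.

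The highest genes of the remaining clusters were lower. Olfr1352 led the first chromosome 10 cluster with 2.36 ± 0.503 FPKM, and Olfr390 led the 30 genes from 73164361 with 2.196 ± 0.680 (SD, n = 12). Olfr1377 and Olfr464, the highest of their small clusters, stood at 0.538 ± 0.339 and 0.650 ± 0.251 FPKM, on medians of 5 and 8.5 fragments. Among the 17 genes of at least 2 FPKM, the coefficient of variation over the 12 MOE libraries was largest for Olfr314 (34.3%), Olfr786 (31.5%) and Olfr788 (31.0%). For all 17 it exceeded the value that counting fragments alone would give, with a median of 26.9% against 17.0%. Dividing each library by its mature OSN marker level lowered it for all 17, to a median of 20.1%.

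Receptor genes of one cluster are often near copies, which bears on how reads can be assigned to them. Coding sequences of reference transcripts (GENCODE M21, longest open reading frame) were found for 148 of the 150 genes and ran from 921 to 1260 bases with a median of 939. The closest other Olfr gene was itself one of the 150 for 141 of them, with a median identity of 90.4%. The least similar was Olfr225, at 56.0% to its closest gene. No coding sequence was found for Olfr329 and Olfr391, so near copies of them were not sought. In all, 41 genes had a partner at 95% or more and formed 17 sets. Their median MOE level was 0.293 FPKM, against 0.650 for the 107 genes with no such partner, and 12 of the 41 reached 0.5 FPKM against 63 of the 107. Reads that match several copies can be divided between them in ways the deposited values do not show, so single levels within these sets are uncertain, and the part of this in the lower level was not tested.

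Levels within a set were often unequal. In 8 of the 17 sets the highest gene was at least 5 times the lowest or the lowest was listed at 0. Olfr1392 stood at 1.55 FPKM beside its near copy Olfr10 at 0.0272, and Olfr1354 at 1.16 beside Olfr1355 at 0.0207. The summed levels of sets were 1.82 ± 0.357 FPKM for that of Olfr1392 and 1.29 ± 0.350 for that of Olfr1354 (SD, n = 12).

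The set of 5 genes around Olfr1382 shows this together with its sequence. Olfr1382 had 4.12 ± 1.15 FPKM, Olfr1381 0.631 ± 0.290 and Olfr1380 0.473 ± 0.165 (SD, n = 12), and these 3 are neighbours between 49348689 and 49378360 on chromosome 11. Olfr1371 and Olfr1373 lie apart from them, at 52026554 to 52027489 and 51958095 to 51959030 on the same chromosome. Olfr1371 was listed at 0 in 11 libraries and at 0.0996 FPKM in MOE-CM3, and Olfr1373 at 0 in all 12. All 5 coding sequences have 936 bases, and each is at least 95% identical to the other 4. Outside the coding sequence they divide differently. The 250 bases before the start codon are 92.8% identical between Olfr1382, the highest, and Olfr1373, listed at 0, and 93.6% identical between Olfr1381 and Olfr1380, whereas the other pairs among the 5 lie between 47.2% and 57.2%. The windows of these 2 pairs are printed here because they show how alike the copies are (RefSeq, GRCm38.p6, 5′ to 3′ on the gene's strand, 250 bases before and 50 from the annotated start, which is the start codon in each). Capitals mark the bases that differ from the other gene of the pair in the alignment. The window of Olfr1382 is chr11:49534937-49535236 on the plus strand, that of Olfr1373 chr11:52145479-52145778 on the minus strand, and those of Olfr1381 and Olfr1380 chr11:49551499-49551798 and chr11:49563673-49563972 on the plus strand.
Olfr1382: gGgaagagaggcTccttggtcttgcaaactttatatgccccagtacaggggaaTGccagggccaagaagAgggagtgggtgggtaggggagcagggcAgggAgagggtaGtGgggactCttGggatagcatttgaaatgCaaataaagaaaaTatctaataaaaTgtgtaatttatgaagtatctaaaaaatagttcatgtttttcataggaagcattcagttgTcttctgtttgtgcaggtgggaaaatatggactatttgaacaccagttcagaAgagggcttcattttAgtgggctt
Olfr1373: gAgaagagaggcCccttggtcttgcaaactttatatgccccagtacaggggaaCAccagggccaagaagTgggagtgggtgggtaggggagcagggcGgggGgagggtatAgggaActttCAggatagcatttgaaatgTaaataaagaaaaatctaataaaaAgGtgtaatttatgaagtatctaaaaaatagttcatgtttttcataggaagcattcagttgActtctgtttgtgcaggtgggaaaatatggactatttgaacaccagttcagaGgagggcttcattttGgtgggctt
Olfr1381: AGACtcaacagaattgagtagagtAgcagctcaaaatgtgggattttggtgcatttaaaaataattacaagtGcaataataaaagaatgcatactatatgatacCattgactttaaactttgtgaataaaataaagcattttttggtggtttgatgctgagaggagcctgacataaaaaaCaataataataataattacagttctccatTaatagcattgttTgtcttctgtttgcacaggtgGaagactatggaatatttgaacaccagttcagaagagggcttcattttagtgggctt
Olfr1380: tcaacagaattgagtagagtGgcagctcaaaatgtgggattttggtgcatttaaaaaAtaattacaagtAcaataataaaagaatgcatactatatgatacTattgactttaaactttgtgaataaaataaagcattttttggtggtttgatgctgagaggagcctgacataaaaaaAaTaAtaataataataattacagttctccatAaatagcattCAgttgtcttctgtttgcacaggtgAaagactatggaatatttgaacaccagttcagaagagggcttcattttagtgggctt
In the first pair the windows differ at 20 positions by edit distance and in the second at 16.

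The 4 genes listed at 0 in all 12 MOE libraries each had a close copy. Olfr773 is 99.3% identical to Olfr772 (0.184 FPKM), Olfr247 is 99.3% identical to Olfr819 (0.335 FPKM) and Olfr1373 is 98.6% identical to Olfr1381. Olfr331, just under the 95% line, is 94.97% identical to Olfr330, which stood at 2.17 ± 0.657 FPKM (SD, n = 12). In a single MOE library 3 fragments were worth a median of 0.262 FPKM, so 1 listing at 0 does not exclude a level below that. Over 12 libraries lower levels can be seen, since Olfr772 was above 0 in each. The level that a listing at 0 in all 12 leaves possible was not estimated.

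Transcription of receptor genes is known to depend on homeodomain factors such as Lhx2 and on Ebf factors, whose motifs are frequent at receptor promoters. RefSeq start windows (GRCm38.p6, 300 bases) were found for 126 of the 150 genes, 127 windows in all, of which 97 take the start codon as the gene's start and thus need not hold the promoter. The homeodomain core TAATTA, a palindrome that reads the same on both strands, was present in 24 of the 127 windows, 18.9%, against 18.6% of the windows of all Olfr genes and 5.29% of the 32851 windows of all genes. The Ebf core CCCNNGGG, likewise its own reverse complement, was present in 3 windows, 2.36%, against 2.98% of the windows of all Olfr genes and 13.7% of those of all genes. Windows at the start codon were 76.4% of the 127 but 5.83% of those of all genes. The shares of receptor genes and of all genes thus come from unlike regions, and base composition was not compared. Windows whose gene start is the start codon belonged to genes with a median MOE level of 0.427 FPKM, and the remaining windows to genes with a median of 0.991. The window of Olfr788, the highest gene of chromosome 10 (chr10:129472444-129472743, plus strand, GRCm38.p6, annotated start at the start codon), holds 1 copy of TAATTA, given in capitals.
Olfr788: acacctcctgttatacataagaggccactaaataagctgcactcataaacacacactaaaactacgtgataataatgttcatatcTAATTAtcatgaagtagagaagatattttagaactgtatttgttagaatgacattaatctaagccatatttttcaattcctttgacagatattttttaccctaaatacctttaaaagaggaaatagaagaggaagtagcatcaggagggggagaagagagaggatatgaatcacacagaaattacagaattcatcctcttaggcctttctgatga

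The first comparison asked whether the summed receptor signal differed between groups. The summed FPKM of the 150 genes was 178, 112 and 164.6 in the SF libraries and 140, 145 and 148 in SM. In CF it was 145, 159 and 132, and in CM 178, 166 and 92.7. The 2 lowest sums were those of MOE-SF2 and MOE-CM3, the libraries with the lowest OSN markers, and the groups overlapped. Group means were 151 ± 35.2 in SF, 144 ± 3.99 in SM, 145 ± 13.8 in CF and 146 ± 46.2 in CM (SD, n = 3 each), differing by less than the spread within SF or CM. The 150 genes made up between 9.10% and 10.3% of the FPKM of all Olfr genes in each library.

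Relative to the mature OSN marker level, the sum varied less. Its coefficient of variation over the 12 libraries was 17.5% as deposited and 7.32% after division by the marker level. The sum as a percent of the marker level was 101 to 103 in the 3 SM libraries and 104 to 127 in the other 9. For the other 955 Olfr genes the same ratio was 904 to 1018 in SM and 956 to 1132 in the other 9, so there the groups overlapped. No test was made on these sums.

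**Figure D3:**
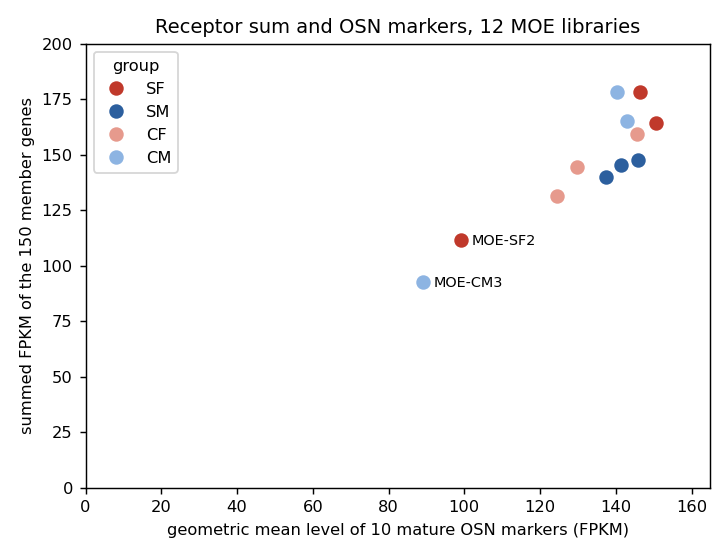
Summed FPKM of the 150 receptor genes against the geometric mean FPKM of 10 mature OSN markers; each point is 1 of the 12 MOE libraries, coloured by group, and both axes start at 0. MOE-SF2 (112) and MOE-CM3 (92.7) are lowest on both axes.

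Single genes were compared with limma on log2(FPKM + 0.5), a scale that understates the change of low genes. Of the 150 genes, 77 passed the filter of a mean of 0.5 FPKM over the MOE libraries, from Olfr392 at 0.522 upward, and Olfr825 at 0.497 was the nearest below it. None of the 77 had an adjusted p under 0.05 in any of 7 comparisons by limma, and none of the 558 other Olfr genes tested in the same fits did. The 7 comparisons share libraries and are not independent. The typical standard error of a difference between 2 groups of 3 was 0.243 on the log2 scale (median over the 77), and the largest difference was 0.860 for SF and SM and 1.04 for CF and CM.

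Between SF and SM, the share of all 13771 genes tested with an adjusted p under 0.05 was 0.0944%, and 0 of the 77 were among them. At an unadjusted p under 0.05, 14 of the 77 (18.2%) stood out, against 4.16% of all genes and 8.42% of the other Olfr genes. Of the 14, 8 were higher in SF and 6 lower, where all genes gave 1.01% higher and 3.15% lower. In 13 of the 77 the groups did not overlap, against 14.2% of all genes. These shares depend on the scaling and on single libraries. With quantile normalization they were 19.5% of the 77 and 14.9% of all genes, and after libraries were shifted to one mature OSN marker level 20.8% and 15.1%. With each library left out, the share of all genes ran from 2.52% without MOE-SM2 to 11.4% without MOE-CM3, and it also moved by more than 1.5 times without MOE-SF2 or MOE-SF3. The share of the receptor genes tested ran from 11.5% without MOE-SF1 to 20.0% without MOE-CM3. Without MOE-SF2 and MOE-CM3 together the shares were 22.5% of the receptor genes and 15.6% of all genes. They lay closer together than with all libraries. The median difference of the 77 was 0.04 on the log2 scale, beside -0.02 for all genes, which became 0.10 under the marker shift.

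Among these, Olfr787 (chromosome 10, 128899734 to 128900672) had 2.52, 1.97 and 2.31 FPKM in SF and 0.780, 1.29 and 1.08 in SM, without overlap. The difference was 0.84 on the log2 scale (SE 0.23, limma adjusted p = 0.603). Olfr222 lay the other way, with 0.486, 1.23 and 1.56 FPKM in SF and 2.36, 2.24 and 2.18 in SM. Its difference was -0.86 (SE 0.26, limma adjusted p = 0.749). Olfr770, with 0.622, 0.899 and 1.01 FPKM in SF and 0.357, 0.476 and 0.338 in SM, differed by 0.59 (SE 0.18, limma adjusted p = 0.758).

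Olfr811 (chromosome 10, 129238620 to 129239579), named here after its values were seen, was the 1 gene of the 77 called between SF and SM under another setting. It had 2.72, 1.58 and 2.78 FPKM in SF and 1.27, 1.09 and 1.35 in SM, again without overlap. The low SF value is that of MOE-SF2. The difference was 0.69 (SE 0.22, limma adjusted p = 0.807). After each library was shifted to the same mature OSN marker level it was 0.82 (SE 0.12, limma adjusted p = 0.0124, with 0.109% of all genes called), and without MOE-SF2 and MOE-CM3 it was 0.90 (SE 0.12, limma adjusted p = 0.0140, with 0.152% called).

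In sex-combined mice the difference with the smallest p of any comparison was that of Olfr824 (chromosome 10, 129563164 to 129564111). It had 0.0984, 0.552 and 0.467 FPKM in CF and 1.35, 1.57 and 0.879 in CM, without overlap, and 0.425 to 0.864 in SF and 0.643 to 0.924 in SM. The values rested on only 1, 6 and 5 estimated fragments in CF and on 14.7, 16 and 9 in CM. The CF minus CM difference was -1.04 (SE 0.23, limma adjusted p = 0.483). It has a near copy, Olfr823, whose values overlapped between the groups (0.0954 to 0.601 in CF and 0.0994 to 0.370 in CM). Summed over both copies the level was 0.667 ± 0.0928 FPKM in CF and 1.53 ± 0.481 in CM (SD, n = 3 each).

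Olfr410 had 1.21, 1.11 and 0.573 FPKM in CF and 0.359, 0.489 and 0.401 in CM, a difference of 0.65 (SE 0.23, limma adjusted p = 1). Olfr376 had 0.465, 0.215 and 0.295 FPKM in CF and 0.717, 0.746 and 0.576 in CM, a difference of -0.52 (SE 0.19, limma adjusted p = 1). The groups did not overlap for either gene. For Olfr376 the values rested on only 3.8, 2.1 and 3 estimated fragments in CF and 5.4, 5 and 4.5 in CM. In all, 0 of the 77 were called between CF and CM beside 0.0436% of all genes, 8 (10.4%) had an unadjusted p under 0.05 beside 1.76%, and 8 did not overlap beside 4.13%. The unadjusted share of all genes was 4.09% with quantile normalization and ran from 1.33% without MOE-CF2 to 8.13% without MOE-CM3, moving by more than 1.5 times without any 1 of the 3 CM libraries. That of the receptor genes was 11.7% with quantile normalization and ran from 6.49% without MOE-CF2 to 18.4% without MOE-CM1. When MOE-SF2 and MOE-CM3 were both left out, the shares were 20% of the receptor genes and 15.2% of all genes.

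Over both housings, females and males were compared with 6 libraries each. None of the 77 was called (0.0726% of all genes were), and 9 (11.7%) had an unadjusted p under 0.05 against 1.86% of all genes, 6 of them higher (1.16% of all genes) and 3 lower (0.697%) in females. The 1.86% of all genes, in either direction, became 6.30% with quantile normalization (16.9% of the 77) and 4.43% under the marker shift (13.0%). With a library left out that share of all genes was at most 4.02%, without MOE-CM3. It also moved by more than 1.5 times without MOE-CM1 or MOE-CM2. With MOE-SF2 and MOE-CM3 both left out it was 3.86%, beside 16.25% of the receptor genes. Olfr376 was the 1 gene whose 6 female values, 0.215 to 0.574 FPKM, did not overlap the 6 male values, 0.576 to 0.754. Such separation was found for 0.109% of all genes. The difference of Olfr376 was -0.47 (SE 0.13, limma adjusted p = 0.992), and the gap between the groups was smaller than the value of 1 fragment. The differences of Olfr824 and Olfr410 were -0.62 (SE 0.16, limma adjusted p = 0.676) and 0.61 (SE 0.16, limma adjusted p = 0.747).

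Housing was compared within each sex and over both. Between SF and CF, 0 of the 77 were called (0.0363% of all genes were), 4 (5.19%) had an unadjusted p under 0.05 against 2.03%, and 5 did not overlap against 10.4% of all genes. Under quantile normalization the unadjusted shares were 10.4% and 7.17%, under the marker shift 14.3% and 7.20%, and without MOE-CM3 6.25% and 8.32%. Leaving out MOE-SF3 also moved the share of all genes by more than 1.5 times. Once MOE-SF2 and MOE-CM3 were both left out, the share of the receptor genes, 16.25%, lay below that of all genes, 21.7%. Olfr391 (chromosome 11, 73612255 to 73616486) had 0.714, 0.837 and 0.719 FPKM in SF and 1.85, 1.44 and 1.39 in CF. The groups did not overlap, and the difference was -0.71 (SE 0.17, limma adjusted p = 0.430). In males it had 0.711, 0.609 and 0.960 FPKM in SM and 0.935, 0.887 and 1.16 in CM, which overlap. Olfr790, with 1.40, 0.845 and 1.19 FPKM in SF and 0.834, 0.421 and 0.0853 in CF, differed by 0.86 (SE 0.25, limma adjusted p = 1). Its CF values rested on 9, 5 and 1 estimated fragments. Olfr1385, with a near copy in Olfr1386, had 0.532, 0.775 and 1.04 FPKM in SF and 1.40, 1.45 and 0.954 in CF (difference -0.47, SE 0.19, limma adjusted p = 1).

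Between SM and CM, 0 of the 77 were called beside 0.0654% of all genes, 8 (10.4%) had an unadjusted p under 0.05 beside 6.93%, and 8 did not overlap beside 13.4%. With a library left out, the unadjusted share of all genes ran from 3.44% without MOE-SM2 to 13.7% without MOE-CM2, and that of the receptor genes from 6.49% without MOE-SM1 to 18.8% without MOE-CM3. The marker shift gave 16.9% of the 77 and 4.94% of all genes. Leaving out both MOE-SF2 and MOE-CM3 gave 22.5% of the receptor genes and 15.2% of all genes. The median difference was 0.02 for the 77 and 0.17 for all genes, the latter resting on 1 library, since it was -0.02 without MOE-CM3, -0.05 under the marker shift and -0.01 with quantile normalization. Olfr771 had 1.24, 1.59 and 1.91 FPKM in SM and 0.934, 0.775 and 0.483 in CM (difference 0.76, SE 0.24, limma adjusted p = 0.666). Olfr1353 had 1.08, 1.60 and 1.39 FPKM in SM and 0.989, 0.875 and 0.358 in CM (0.61, SE 0.21, limma adjusted p = 0.666). For both genes MOE-CM3 was the lowest CM library. Olfr816 lay the other way, at 0.736, 0.784 and 0.236 FPKM in SM and 1.78, 1.46 and 1.13 in CM (-0.88, SE 0.31, limma adjusted p = 0.682).

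Over both sexes, 0 of the 77 were called between sex-separated and sex-combined mice beside 0.102% of all genes, and 4 (5.19%) had an unadjusted p under 0.05 beside 3.3%. With a library left out these shares ran from 2.56% of the receptor genes and 1.99% of all genes, both without MOE-CF3, to 12.5% without MOE-CM3 and 7.68% without MOE-CM2. Without MOE-SF2, MOE-SM2 or MOE-CM1 the share of all genes also moved by more than 1.5 times. Omitting both MOE-SF2 and MOE-CM3 gave 10% of the receptor genes and 8.60% of all genes. No gene of the 77 had groups that did not overlap (0.269% of all genes did). The smallest p were those of Olfr391 (-0.48, SE 0.12, limma adjusted p = 0.398), Olfr1353 (0.46, SE 0.15, limma adjusted p = 0.790) and Olfr394 (0.36, SE 0.14, limma adjusted p = 0.790).

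The interaction asks whether the sex difference itself differed between housings. None of the 77 was called, beside 0.029% of all genes, and 10 (13.0%) had an unadjusted p under 0.05 beside 4.59%. These shares became 20.8% and 11.7% with quantile normalization and 19.5% and 10.9% under the marker shift. With a library left out, that of all genes ran from 2.86% without MOE-CF1 to 15.1% without MOE-CM3, where 22.5% of the receptor genes tested were under 0.05, and it also moved by more than 1.5 times without MOE-SF2, MOE-SF3 or MOE-SM2. The share of the receptor genes was lowest without MOE-SM3, at 7.79%. Olfr771 had the largest interaction, -1.27 (SE 0.34, limma adjusted p = 0.724). Its values were 1.03, 0.496 and 0.937 FPKM in SF and 1.16, 2.17 and 0.919 in CF, so that the SM values lay above the SF values whereas CF and CM overlapped at a single value. Olfr790 had an interaction of 1.16 (SE 0.35, limma adjusted p = 0.893) and Olfr325 one of -0.79 (SE 0.29, limma adjusted p = 0.986). Without MOE-SF2 and MOE-CM3, 3 of 80 genes tested were called in the interaction by limma, namely Olfr811 (1.22, adjusted p = 0.0308), Olfr788 (1.24, adjusted p = 0.0491) and Olfr139 (1.67, adjusted p = 0.0491). In that fit, with SF and CM at 2 libraries each, 2.01% of all genes were called. The unadjusted shares there were close together, at 27.5% of the receptor genes and 25.1% of all genes.

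**Figure D4:**
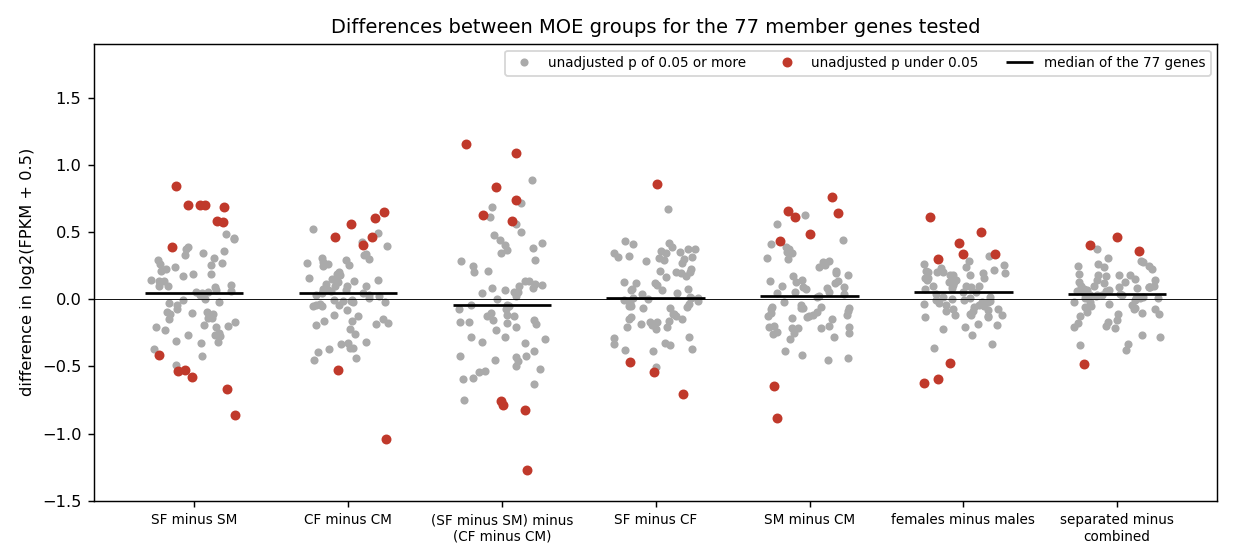
Difference in log2(FPKM + 0.5) between MOE groups for the 77 receptor genes tested, in each of 7 comparisons; each point is a gene, red where the unadjusted limma p is under 0.05, and the black line is the median. Medians lie between -0.04 and 0.05, and none of the points passes the adjusted threshold.

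Genes that act with these receptors were taken as 2 lists. All 15 genes of olfactory transduction, among them Gnal (the G protein alpha subunit of OSNs), Adcy3 (the adenylyl cyclase it activates) and Cnga2, were tested. None was called, and none had an unadjusted p under 0.05 in any of the 7 MOE comparisons. Their median difference was between -0.26, in the interaction, and 0.19, between SM and CM. All 10 regulators of receptor genes, among them Lhx2, Ebf1, the cofactor Ldb1 and the demethylase Kdm1a, were tested and none was called. Atf5, a transcription factor of the receptor feedback signal, had an unadjusted p under 0.05 in 2 comparisons. Between SF and SM its difference was -0.74 (limma adjusted p = 1), and in the interaction it was -0.86 (limma adjusted p = 0.999).

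Outside MOE the 150 genes were present only as traces. Their summed FPKM was 0.744 to 2.74 in the VNO libraries, 1.20% of the MOE sum, and 0.527 to 1.23 in OB, 0.553%. The mature OSN marker level stood at 5.45% of that of MOE in VNO and 2.14% in OB, with Omp, which vomeronasal neurons also express, at 10.3% and 3.57% and Cnga2 at 1.02% and 0.282%. Other markers of the list differed as widely. In VNO Rtp1 stood at 13.8 FPKM, against 63.0 in MOE, and Gnal at 1.97% of its MOE level. In OB Gng13 stood at 66.0 FPKM, against 629 in MOE. The list level in VNO and OB is therefore no measure of OSN number. In VNO, 95 of the 150 genes were above 0 in some library, but only 14 of the 209 values above 0 rested on 3 or more fragments. In OB, 64 genes were above 0 in some library and none of the 124 values reached 3 fragments. The value of 3 fragments, a median of 0.229 FPKM in either tissue, is the level below which a single library cannot tell absence from low expression. These fragment numbers cover counting error only.

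None of the 150 reached a mean of 0.5 FPKM in VNO or OB, so 0 were tested between groups there. Without the filter, 95 genes in VNO could be fitted. By limma 0 of the 95 were called between SF and SM (0.0572% of all genes were). At an unadjusted p under 0.05 there were 4 of the 95 (4.21%), against 7.95% of all genes. Sex-combined females and males gave 0 calls (0.0333% of all genes) and 3 such genes (3.16%, against 4.09% of all genes). The interaction gave 0 calls (0.00476% of all genes) and 1 such gene (1.05%, against 4.97% of all genes). The comparison of housings gave 0 calls (0.00476% of all genes) and 3 such genes (3.16%, against 6.63% of all genes). Between MOE and VNO, 50 genes passed the filter through their MOE level, and all 50 were called as higher in MOE by limma, beside 83.2% of all genes called in either direction. Genes that pass in this way had to differ, so the count is a description. Without the filter, 131 of 149 were called between MOE and VNO (70.2% of all genes) and 7 of 115 between VNO and OB (75%).

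Olfr224 was the best measured of the traces. It lies on chromosome 11 from 58379901 to 58380845 and had 2.29 ± 0.477 FPKM in MOE (SD, n = 12), the 13th highest of the 150. In VNO it was above 0 in 11 of 12 libraries and had 3 or more fragments in 8, the only gene of the 150 with that many in at least 6 libraries. Its VNO values were 0.213, 0.220 and 0.144 FPKM in SF, 0.0794, 0.323 and 0 in SM, 0.253, 0.510 and 0.545 in CF, and 0.448, 0.287 and 0.559 in CM. They rested on 46.0 fragments in all, at most 8 per library.

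The mean of Olfr224 in VNO, 0.298 ± 0.184 FPKM, was 13.0% of its MOE level and made up 16.9% of the VNO sum of the 150. Among the genes of at least 1 FPKM in MOE the median of that ratio was 0.456% and the next highest was 3.49%. Among lower genes, Olfr1388 had a ratio of 16.2%, on 21.0 fragments in all. The closest relative of Olfr224 in coding sequence is Olfr331, at 90.6% identity. In OB Olfr224 was listed at 0 in all 12 libraries, where 3 fragments would have been worth 0.196 to 0.380 FPKM.

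The 6 sex-combined VNO values of Olfr224 ranged from 0.253 to 0.559 FPKM and the 6 sex-separated values from 0 to 0.323, overlapping. The difference between housings without the filter was -0.50 (SE 0.13, limma adjusted p = 0.726). The mature OSN marker level in VNO stood at 5.71 ± 0.649 in SF, 8.28 ± 0.749 in SM, 7.68 ± 1.63 in CF and 7.27 ± 0.979 in CM (SD, n = 3), and its part in this was not tested. The study's RNA integrity numbers were lower in the sex-combined VNO libraries than in most sex-separated ones, and their part was not tested either. Olfr1388, named here after its values were seen, had the next highest VNO mean, 0.117 ± 0.113 FPKM, above 0 in 9 of the 12 libraries and with 3 or more fragments in 2. It stood at 0.726 FPKM in MOE. In OB the highest mean was 0.0564 FPKM, for Olfr57, which had at most 2 fragments in a library.

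**Figure D5:**
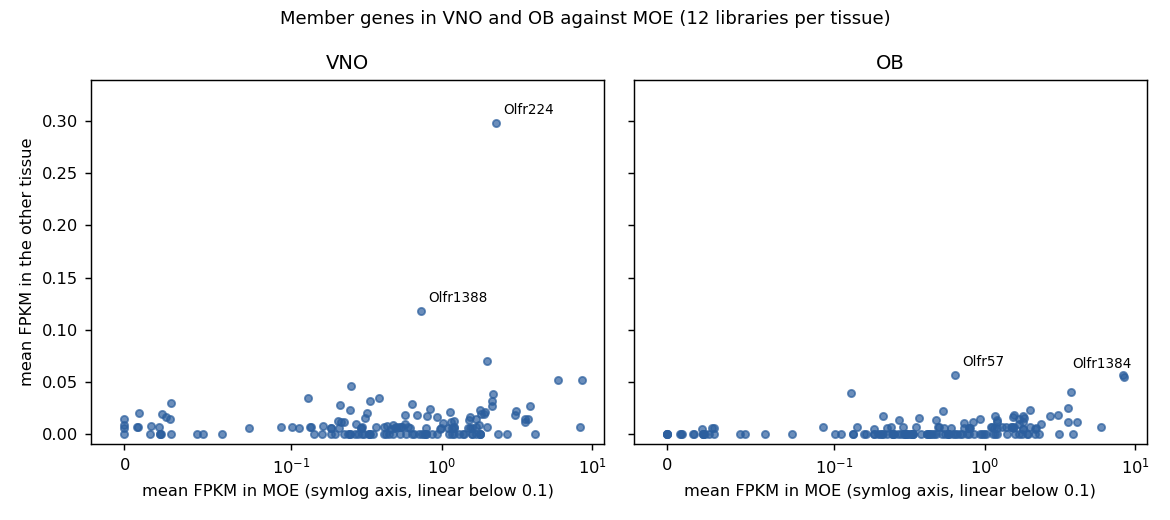
Mean FPKM of the 150 receptor genes in VNO (left) and OB (right) against MOE; each point is a gene averaged over 12 libraries, and the horizontal axis is linear below 0.1 FPKM and logarithmic above. Olfr224 (0.298) and Olfr1388 (0.117) are the highest in VNO, and no gene exceeds 0.0564 in OB.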

How the data were processed

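RNA was total RNA depleted of ribosomal RNA, and the authors aligned read pairs and computed the deposited FPKM values per RefSeq transcript and locus (mm9). The submitters' processing notes name TopHat2 2.1.0, Cufflinks 2.2.1.0 and Cuffdiff. Entries were given symbols by RefSeq accession and summed. The 95% limits gave each value's standard error, and the square of FPKM over that error was taken as its number of fragments. Values were transformed to log2(FPKM + 0.5), and 4 group means per tissue were fitted using limma 3.58.1 (lmFit, then eBayes with trend; R 4.3.3) for genes with a mean of at least 0.5 FPKM, with Benjamini-Hochberg adjustment over all genes tested. The fit was checked on simulated data. Coding sequences were aligned with edlib 1.3.9.post1.

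Replicate numbers were checked as pairs by correlating the deviations of same-numbered libraries from their group means. In VNO all 3 pairs of SF and SM exceeded 0.1 (0.127 to 0.203), so that the replicate block applies to that comparison. In no other pair of groups did all 3.

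The members and lists were chosen with earlier results of these data known. Genes named are the 10 highest in MOE, the 3 with the smallest p per MOE comparison, those with 3 fragments in at least 6 VNO or OB libraries, the highest of each cluster, the 3 most variable of at least 2 FPKM and the ends of the order. Others were named after their values were seen.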

Additional observations from a re-analysis of the deposited data

How the results depend on the processing

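The count of receptor genes called by limma was 0 in each of the 7 MOE comparisons with pseudocounts of 0.1 or 1, no filter on low values, a filter at 2 FPKM or quantile normalization, and in the 4 comparisons between pairs of groups when only their 6 libraries were fitted. Quantile normalization, both pseudocounts and the block left the 50 calls between MOE and VNO at 50. Leaving out each library in turn gave counts between 0 and 0. With the replicate number as a block the count was also 0, and same-numbered MOE libraries had correlations of their deviations between -0.0667 and 0.236 (median 0.0240, 3 of 18 above 0.1), so they were not taken as pairs there. In VNO 7 of 18 were above 0.1, among them all 3 pairs of SF and SM. Without the filter and with the replicate block, chosen after seeing the data, the VNO comparison of SF with SM called 0 of 95 receptor genes beside 0.0381% of all genes, and the block changed no call of a receptor gene. Shifting libraries to one mature OSN marker level gave 1 call between SF and SM, Olfr811 (0.109% of all genes). Leaving out MOE-SF2 and MOE-CM3 together, chosen after seeing the data, gave 1 call between SF and SM, again Olfr811 (0.152% of all genes), and 3 in the interaction (2.01%), and the cause was not tested. Without the filter, 131 of 149 genes were called between MOE and VNO (70.2% of all genes) and 7 of 115 between VNO and OB (74.95%), where more genes entered the test. No difference of a receptor gene named for its p changed sign under the alternatives run, although medians over all genes did. No gene's locus overlapped another gene, so leaving out overlapping genes changed nothing. Depth limits single genes: below about 0.262 FPKM in a MOE library a gene rests on fewer than 3 fragments there.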
